A study of Homo sapiens with 9 samples.

Results

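The genes described here encode the core machinery of autophagy and the receptors that carry cargo to it, in the human embryonic stem cell line H9 and in 2 fates made from it. Members were chosen by symbol: the ATG genes, ULK1 to ULK4, the GABARAP and MAP1LC3 genes, WIPI1 and WIPI2, 5 cargo receptors and 9 further genes of nucleation, membrane growth and fusion. The table held 45 such genes among its 21417 gene symbols, and for each the transcript highest on average was used. Of these, 42 averaged at least 0.5 RPKM (read density per transcript length and library size) and were among the 14473 genes tested. ATG9B, GABARAPL3 and MAP1LC3B2 averaged 0.376, 0.0689 and 0.396 RPKM and were not tested.

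Total RNA was read in 9 libraries, 3 in each group. Undifferentiated cells (hESC) were taken at day 0 from Matrigel and mTeSR1 medium. Neuroectoderm was taken at day 5 of treatment with NOGGIN, an antagonist of bone morphogenetic proteins, at 200 nM and SB431542, an inhibitor of activin and Nodal receptors, at 10 μM. Mesendoderm was taken at day 5 of treatment with BMP4 at 5 ng/ml in mTeSR1. All 3 groups come from 1 cell line, and by its title the study was concerned with primary cilia, autophagy and NRF2 in the choice of the neuroectoderm fate.

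Autophagy encloses cytoplasm in a double membrane that later fuses with a lysosome. The ULK1 complex starts the process, a class III PI3-kinase marks the growing membrane with PI3P, WIPI proteins read that mark, and 2 ubiquitin-like conjugation systems attach ATG8 proteins (the LC3 and GABARAP subfamilies) to the membrane. Cargo receptors hold ubiquitin or damaged organelles with one end and ATG8 proteins with the other. Nutrient signals act on the ULK1 complex through mTORC1 and AMPK, and TFEB, TFE3 and FOXO factors are known to act on autophagy genes.

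The reconstructed depth was 36.2 to 69.2 M reads per library, at which 3 reads on a 1 kb transcript are worth 0.0434 to 0.0829 RPKM. Libraries are numbered 1 to 3 within a group. In 3 of them, here called GC-shifted, levels ran against the GC content of the transcripts: the rank correlation across 13873 genes between GC content and a library's deviation from the other 2 of its group was -0.62 in hESC 2, -0.56 in neuroectoderm 1 and -0.29 in mesendoderm 1, and 0.19 to 0.59 in the other 6. Genes are not independent replicates, and the values are descriptive. The GC-shifted libraries were picked from these same data, and fits without them keep the other 2 of each group. Those fits called 58.6% of all tested genes in neuroectoderm and 47.1% in mesendoderm against hESC, and 60.8% between the fates. With all 9 libraries the shares were 44.2%, 35.1% and 48.1%. Calls gained without the GC-shifted libraries are therefore no independent support. Marker genes matched the labels in part. PAX6, SOX1 and ZBTB16 were high in neuroectoderm (summed neuroectoderm list 61.4 to 90.3 RPKM, against 0.680 to 4.55 in the other groups), with LHX2 and SIX3 near 0 in every group. HESX1, the sixth marker of that list, was lower in neuroectoderm, at 0.717 ± 0.231 RPKM against 3.13 ± 0.257 in hESC (mean ± SD, n = 3). T, MIXL1 and EOMES were high in mesendoderm (summed list 107.3 to 157.4 RPKM, against 0.260 to 1.05 elsewhere). All 5 amnion-like markers were also above 0.5 RPKM in mesendoderm, summing to 45.9 to 60.6 RPKM against 0.300 to 1.20 elsewhere. The 4 endoderm markers summed to 46.1 to 72.1 RPKM in mesendoderm, 6.10 to 12.3 in neuroectoderm and 0.710 to 1.39 in hESC. CER1 made up most of the mesendoderm sum (59.2 ± 13.4 RPKM, against 0.487 ± 0.2401 in hESC), SOX17 and FOXA2 averaged 0.22 ± 0.14 and 0.0367 ± 0.0321 RPKM there, and CXCR4 averaged 10.2 ± 3.57 RPKM in neuroectoderm. The pluripotency list summed to 680.1 to 776.4 RPKM in hESC, 304.2 to 329.9 in neuroectoderm and 377.8 to 427.8 in mesendoderm. LIN28A, at 275 ± 10.7 RPKM, made up most of the neuroectoderm sum. NANOG, TDGF1 and L1TD1 averaged 22.0, 56.3 and 127.7 RPKM in hESC, 0.127, 0.0600 and 0.970 in neuroectoderm, and 12.2, 23.7 and 59.6 in mesendoderm. The part of these other cell states in the differences below was not tested, and in bulk RNA fewer cells of a type and less RNA per cell cannot be told apart.

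In neuroectoderm 14 members differed from hESC, spread over most steps of the pathway. ULK2, ATG13, ATG7, ATG16L2, TECPR1, GABARAPL2, CALCOCO2 and NBR1 rose against hESC, while ATG5, GABARAPL1, MAP1LC3C, SQSTM1, ULK4 and WIPI1 fell. These were 8 higher and 6 lower of 42, or 33.3% of the members, beside 21.9% of all tested genes higher, 22.3% lower and 44.2% in either direction. Differences are on the scale log2(RPKM + 1), which understates the change of low genes. Their median over the members was 0.12 against -0.024 over all tested genes, and the median size without sign was 0.28 against 0.38. Only ULK2 was both past the threshold and at least doubled or halved on that scale, 2.38% of the members beside 14.3% of all tested genes. The 3 libraries of the groups did not overlap for 17 members, 40.5%, beside 51.9% of all tested genes. Without hESC 1 the count was 7 higher and 3 lower, 23.8% of the members beside 35.7% of all tested genes. Without neuroectoderm 1 it was 15 higher and 6 lower, 21 of 42 members, beside 51.3% of all tested genes (27.9% higher and 23.4% lower). With all 3 GC-shifted libraries left out it was 16 higher and 7 lower, 54.8% beside 58.6% (31.0% higher and 27.6% lower). With small RNA genes left out and the values rescaled it was 11 higher and 4 lower, beside 23.6% of all tested genes higher and 18.5% lower, a scaling that moved the median of all genes to 0.084.

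Mesendoderm differed from hESC at fewer members. BECN1, GABARAPL1, GABARAPL2, ULK2 and WIPI1 rose, and MAP1LC3C, OPTN and ULK4 fell. The called share was 19.0%, beside 17.0% of all tested genes higher, 18.1% lower and 35.1% in either direction. The median member difference was 0.095 against -0.017 over all tested genes, with a median size of 0.22 against 0.32. On the log2(RPKM + 1) scale no called member reached a doubling or halving, beside 11.5% of all tested genes. In RPKM, WIPI1 averaged 6.08 in mesendoderm against 2.52 in hESC. Groups did not overlap for 16 members, 38.1%, beside 54.7% of all tested genes. Leaving out hESC 3, mesendoderm 2 or mesendoderm 3 left 1 member lower in each case, and 5, 6 and 4 higher. Of all tested genes, 12.97%, 15.14% and 12.58% were lower in these fits and 13.44%, 14.93% and 12.31% higher. In either direction the shares were 26.4%, 30.1% and 24.9%. Leaving out the 3 GC-shifted libraries gave 9 higher and 6 lower, 35.7% of the members beside 47.1% of all tested genes (22.8% higher and 24.3% lower).

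The fates differed from each other at 19 members, 45.2%, beside 24.0% of all tested genes higher in neuroectoderm, 24.1% lower and 48.1% in either direction. Higher in neuroectoderm were ULK2, ULK4, ATG13, ATG14, ATG2B, ATG16L2, TECPR1, CALCOCO2, NBR1 and OPTN, and lower were WIPI1, BECN1, ATG3, ATG5, ATG4D, VMP1, GABARAPL1, MAP1LC3C and SQSTM1. WIPI1 and GABARAPL1 moved in opposite directions from hESC in the 2 fates. On the log2(RPKM + 1) scale, these 2 and ATG16L2 were the 3 called members at or beyond a doubling or halving. They were 7.14% of the members, beside 17.5% of all tested genes. In RPKM, CALCOCO2 averaged 8.92 in neuroectoderm against 4.21 in mesendoderm, and MAP1LC3C 0.5 against 1.21. Non-overlap held for 23 members, 54.8%, beside 57.2% of all tested genes. With small RNA left out the split was 11 higher and 6 lower, beside 30.6% of all tested genes higher and 18.9% lower, and the median of all genes moved from -0.006 to 0.18. The 3 comparisons share groups with each other, so their counts are not independent. Passing none of them were 21 members, which include ULK1, the class III kinase PIK3C3 with its partner PIK3R4, and the best known LC3 gene, MAP1LC3B.

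**Figure D1:**
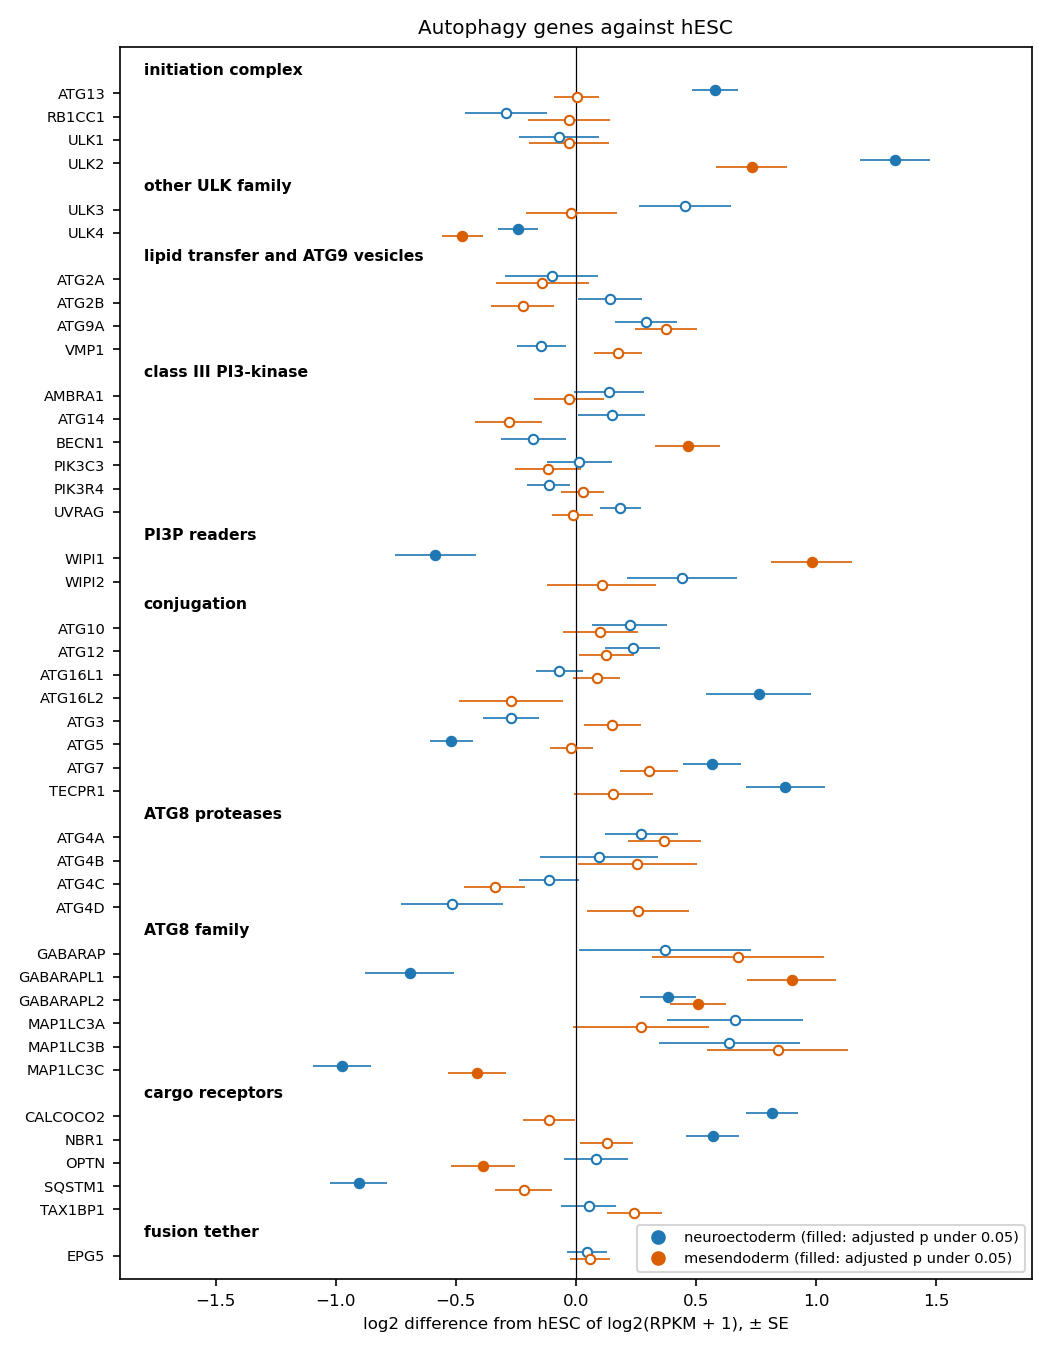
Differences from hESC on the log2(RPKM + 1) scale (horizontal axis, ± SE) for the 42 tested members grouped by role, in neuroectoderm (blue) and mesendoderm (orange), filled where limma's adjusted p was under 0.05. WIPI1 and GABARAPL1 lie on opposite sides of 0 in the 2 fates, and ULK2 lies furthest to the right at 1.33 in neuroectoderm.

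The ULK1 complex changed through ULK2 and ATG13. ULK2, a kinase closely related to ULK1, read 2.96, 2.74 and 3.33 RPKM in hESC, 7.01, 10.8 and 9.8 in neuroectoderm and 6.05, 5.72 and 5.2 in mesendoderm. Its 3 groups were fully separate, with the levels of mesendoderm between those of hESC and neuroectoderm. Against hESC the mesendoderm difference was 0.73 ± 0.15 (adjusted p = 0.00453), and neuroectoderm exceeded mesendoderm by 0.599 ± 0.15 (adjusted p = 0.008604). Among the 20 members with several transcripts in the table, ULK2 had the widest range of change from hESC between its transcripts. The range was 0.165 in neuroectoderm and 0.143 in mesendoderm. Transcripts of a gene can share exons, and how reads were counted is not given, so small ranges cannot show whether transcripts diverged.

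ATG13, the adaptor that joins the ULK kinases to the scaffold RB1CC1, read 12.9, 13.7 and 14.8 RPKM in hESC, 20.6, 21.5 and 21.2 in neuroectoderm and 14.7, 13.4 and 13.3 in mesendoderm. Its neuroectoderm libraries were tightly grouped above all 6 others, a difference of 0.58 ± 0.095 from hESC (adjusted p = 0.00111) and 0.58 ± 0.095 from mesendoderm (adjusted p = 9.94e-04). ULK1 itself read 14.8, 11.6 and 15.1 RPKM in hESC, 9.99, 15.7 and 14.1 in neuroectoderm and 12.7, 13.97 and 13.7 in mesendoderm, overlapping in all groups, with differences of -0.070 ± 0.17 in neuroectoderm and -0.029 ± 0.17 in mesendoderm (adjusted p = 0.768 and 0.917). Mean ULK2 stood at 9.20 beside 13.3 RPKM of ULK1 in neuroectoderm and at 3.01 beside 13.8 in hESC. RB1CC1 ranged from 9.03 to 17.0 RPKM over the 9 libraries and passed no test, at -0.29 in neuroectoderm (adjusted p = 0.205). RB1CC1 was past the threshold without neuroectoderm 1 (adjusted p = 0.0421), and against mesendoderm it was past the threshold with the 3 GC-shifted libraries left out (adjusted p = 0.03297).

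The other 2 ULK genes are less tied to autophagy: ULK3 is best known in Hedgehog signalling, and ULK4 is a pseudokinase with a role in ciliated cells. ULK4 read 3.14, 3.42 and 3.45 RPKM in hESC, 2.6, 2.88 and 2.53 in neuroectoderm and 2.11, 2.3 and 1.96 in mesendoderm. The highest ULK4 values were those of hESC, and no groups overlapped. Its fall in mesendoderm was -0.47 ± 0.085 (adjusted p = 0.00254) and kept its call in all 17 other settings tried, while the neuroectoderm difference of -0.24 ± 0.085 (adjusted p = 0.0464) was lost in 15 of them, among which were 8 of the 9 single libraries left out (all but mesendoderm 2, adjusted p = 0.0517 to 0.142). The same held between the fates, at 0.23 ± 0.085 (adjusted p = 0.0492, and 0.0580 to 0.168 without those libraries), where the call was also lost with a replicate block for these 6 libraries (adjusted p = 0.0536). ULK3 read 11.6, 10.01 and 12.8 RPKM in hESC, 11.5, 19.9 and 17.9 in neuroectoderm and 10.1, 11.9 and 11.9 in mesendoderm and its neuroectoderm difference, 0.45 ± 0.19 (adjusted p = 0.0839), did not pass. ULK3 was past the threshold without neuroectoderm 1 (adjusted p = 0.00223) and in 3 other settings (adjusted p = 0.00137 to 0.0154). Against mesendoderm its difference of 0.47 ± 0.19 (adjusted p = 0.0692) passed with the replicate block for these 6 libraries (adjusted p = 0.0250), and it was past the threshold without neuroectoderm 1 (adjusted p = 0.00182) and in 3 other settings (adjusted p = 6.63e-04 to 0.00665).

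ATG9 vesicles and lipid transfer, which supply the growing membrane, gave 0 calls by limma against hESC in either fate. Of the 4 genes, 0 had an unadjusted p under 0.05 in neuroectoderm and 1 in mesendoderm. Beside them, 44.2% of all tested genes were called in neuroectoderm and 35.1% in mesendoderm. ATG9A, the lipid scramblase of those vesicles, read 13.1 to 21.1 RPKM over the 9 libraries, lowest in hESC 1. ATG9A was higher than hESC by 0.38 ± 0.13 in mesendoderm (adjusted p = 0.0509) and 0.29 ± 0.13 in neuroectoderm (adjusted p = 0.0976), without overlap in either fate and without passing the threshold. It was past the threshold in both fates without neuroectoderm 1 (adjusted p = 0.0234 in mesendoderm and 0.0349 in neuroectoderm). ATG9A shares 43.5% of its exon bases with a read-through gene on the same strand, so its reads cannot be told from that gene's.

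VMP1, another scramblase of the endoplasmic reticulum, read 17.6, 21.3 and 19.3 RPKM in hESC, 16.6, 17.8 and 17.9 in neuroectoderm and 22.03, 22.1 and 21.7 in mesendoderm. Its values were higher in mesendoderm than in every other library. Between the fates VMP1 differed by -0.32 ± 0.101 (adjusted p = 0.0283), with the call gone without hESC 3 or neuroectoderm 2 or 3 or mesendoderm 1, 2 or 3 (adjusted p = 0.0511 to 0.0781) and in 3 other settings (adjusted p = 0.0585 to 0.691). Against hESC the mesendoderm difference of 0.17 ± 0.101 did not pass (adjusted p = 0.218), and VMP1 was past the threshold with the 3 GC-shifted libraries left out (adjusted p = 0.0445). ATG2B, a bridge-like lipid transfer protein, read 1.86, 2.34 and 1.98 RPKM in hESC, 3.06, 2.02 and 2.12 in neuroectoderm and 1.86, 1.51 and 1.5 in mesendoderm. Neuroectoderm 1 was its highest library, and the difference between the fates was 0.36 ± 0.13 (adjusted p = 0.0464), with the call gone without hESC 1, 2 or 3 or neuroectoderm 1 or 3 or mesendoderm 2 or 3 (adjusted p = 0.0502 to 0.135) and in 6 other settings (adjusted p = 0.0535 to 0.0804). Its paralog ATG2A lay between 3.28 and 6.29 RPKM, with neuroectoderm 1 lowest, and passed no test in the fit of all 9 libraries. Between the fates ATG2A was past the threshold with the 3 GC-shifted libraries left out (adjusted p = 0.0426). ATG9B was between 0.270 and 0.490 RPKM in all libraries.

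Of the 6 genes of the class III PI3-kinase, limma called 0 in neuroectoderm, where 0 also had an unadjusted p under 0.05. BECN1 alone rose in mesendoderm. The shares of all tested genes called were 44.2% in neuroectoderm and 35.1% in mesendoderm. BECN1, the scaffold of the kinase complexes, read 10.2, 9.71 and 11.3 RPKM in hESC, 7.48, 10.2 and 9.66 in neuroectoderm and 16.5, 13.3 and 14.5 in mesendoderm. The mesendoderm libraries lay above the other 6, by 0.47 ± 0.14 over hESC (adjusted p = 0.0263), with the call gone without hESC 1 or 2 or mesendoderm 1 or 3 (adjusted p = 0.0724 to 0.0928), with small RNA left out (adjusted p = 0.0926) and with a replicate block (adjusted p = 0.0612). The difference of neuroectoderm from mesendoderm was -0.64 ± 0.14 (adjusted p = 0.00394), a call kept in every setting. CNTD1, which overlaps 23.5% of the exon bases of BECN1 on the opposite strand, averaged at most 0.0533 RPKM in any group.

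ATG14, the subunit that directs the kinase to autophagosome formation, read 3.62, 4.62 and 4.38 RPKM in hESC, 5.94, 4.27 and 4.2 in neuroectoderm and 3.48, 2.84 and 3.53 in mesendoderm. Neuroectoderm 1 was the highest of its libraries, and all 3 neuroectoderm values lay above those of mesendoderm. The difference between the fates was 0.43 ± 0.14 (adjusted p = 0.0315), with the call gone without neuroectoderm 1 or mesendoderm 1, 2 or 3 (adjusted p = 0.05302 to 0.107) and in 3 other settings (adjusted p = 0.0563 to 0.0635). The catalytic subunit PIK3C3 spanned 7.64 to 11.2 RPKM and its regulatory partner PIK3R4 9.19 to 10.8. AMBRA1, a BECN1 partner, spanned 10.0 to 15.4 RPKM, and UVRAG, which replaces ATG14 in the endosomal form of the kinase, 3.58 to 4.72. None of these 4 passed a test in the fit of all 9 libraries as deposited, and their differences from hESC lay between -0.12 and 0.19. Between the fates AMBRA1 was past the threshold with small RNA left out (adjusted p = 0.0185) and with the 3 GC-shifted libraries left out (adjusted p = 0.0356), and in neuroectoderm against hESC UVRAG was past the threshold with the 3 GC-shifted libraries left out (adjusted p = 0.0326).

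WIPI1 and WIPI2 bind PI3P on the forming autophagosome, and WIPI2 recruits ATG16L1. WIPI1 read 2.52, 2.81 and 2.24 RPKM in hESC, 1.19, 1.66 and 1.21 in neuroectoderm and 8.06, 4.76 and 5.41 in mesendoderm. Its groups were fully separate in the order neuroectoderm, hESC and mesendoderm. The fall in neuroectoderm was -0.58 ± 0.17 (adjusted p = 0.0206), with the call gone without hESC 1 or 2 or neuroectoderm 3 (adjusted p = 0.0572 to 0.0673) and with small RNA left out (adjusted p = 0.0822). The rise in mesendoderm was 0.98 ± 0.17 (adjusted p = 0.002), and the fates differed by -1.57 ± 0.17 (adjusted p = 7.23e-05), the smallest adjusted p among all member tests. ARSG overlaps 28.5% of the WIPI1 exon bases on the opposite strand, and the strand used in counting is not given in the sources used here. ARSG rose from 1.64 ± 0.101 RPKM (mean ± SD, n = 3) in hESC to 6.97 ± 1.72 in neuroectoderm and 3.103 ± 0.51 in mesendoderm (adjusted p = 7.02e-05 and 0.0159). The part of ARSG reads in the WIPI1 values was not tested, and overlapping reads cannot be told apart.

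WIPI2 stood higher than WIPI1 per length, at 13.8, 12.01 and 15.3 RPKM in hESC, 12.4, 23.01 and 23.4 in neuroectoderm and 12.7, 15.2 and 16.7 in mesendoderm. Neuroectoderm 2 and 3 were the highest and neuroectoderm 1 lay within the range of hESC. The difference from hESC, 0.44 ± 0.23, did not pass (adjusted p = 0.152). WIPI2 was past the threshold without neuroectoderm 1 (adjusted p = 0.00245) and in 3 other settings (adjusted p = 8.49e-04 to 0.0415), and against mesendoderm it was past the threshold without neuroectoderm 1 (adjusted p = 0.00539), with small RNA left out (adjusted p = 0.00682) and with the 3 GC-shifted libraries left out (adjusted p = 0.00215). Its transcript has a GC content of 55.8%.

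**Figure D2:**
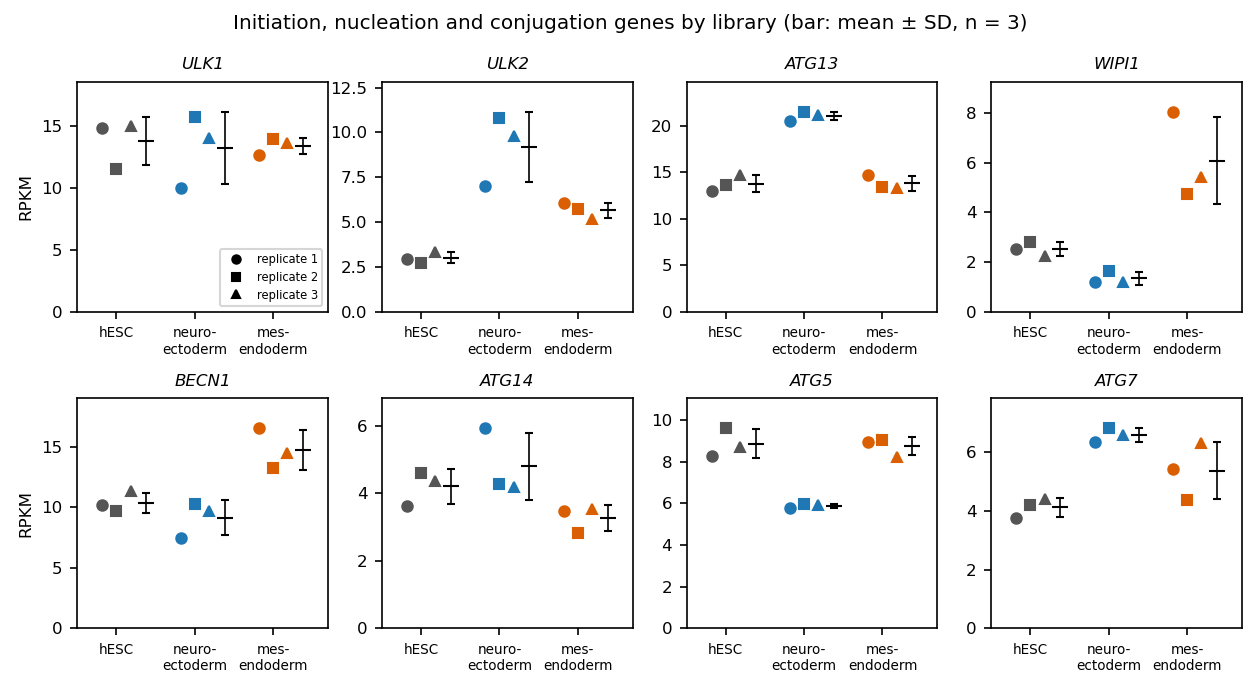
RPKM (vertical axis) of 8 initiation, nucleation and conjugation genes in each library, with the marker shape giving the replicate and the bar the mean ± SD of 3 libraries. ULK2 and ATG13 separate neuroectoderm from hESC upward and ATG5 downward, while ULK1 overlaps in all groups and WIPI1 and BECN1 are highest in mesendoderm.

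Of the 8 conjugation genes, 3 rose and 1 fell in neuroectoderm, beside 21.9% of all tested genes higher and 22.3% lower. In mesendoderm limma called 0 of them, with 1 at an unadjusted p under 0.05, beside 35.1% of all tested genes called. ATG5, which is joined to ATG12 to form the ligase for ATG8 lipidation, read 8.27, 9.61 and 8.71 RPKM in hESC, 5.76, 5.97 and 5.9 in neuroectoderm and 8.92, 9.04 and 8.23 in mesendoderm. All neuroectoderm libraries lay below all others with little spread. The differences of neuroectoderm were -0.52 ± 0.089 from hESC and -0.500 ± 0.089 from mesendoderm (adjusted p = 0.00147 and 0.00157). Both calls were lost when small RNA was left out and the values rescaled (adjusted p = 0.0947 and 0.202).

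ATG7, the activating enzyme of both conjugation systems, read 3.76, 4.19 and 4.41 RPKM in hESC, 6.33, 6.81 and 6.6 in neuroectoderm and 5.42, 4.36 and 6.31 in mesendoderm. Neuroectoderm lay above all of hESC, by 0.57 ± 0.12 (adjusted p = 0.00478), and mesendoderm lay between, with mesendoderm 2 inside the range of hESC and mesendoderm 3 just under the lowest neuroectoderm value (0.304 ± 0.12 against hESC, adjusted p = 0.08305). In mesendoderm ATG7 was past the threshold without mesendoderm 2 (adjusted p = 0.0209), and between the fates it was past the threshold without mesendoderm 3 (adjusted p = 0.0436). VGLL4 overlaps 32.2% of the ATG7 exon bases on the opposite strand and rose in neuroectoderm too, from 8.78 ± 0.235 to 19.6 ± 5.68 RPKM (1.03, adjusted p = 0.002299). Reads of the overlapping part cannot be told apart.

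TECPR1, a lysosomal protein that binds the ATG12 and ATG5 conjugate, read 3.16, 2.37 and 3.16 RPKM in hESC, 4.55, 7.17 and 6.9 in neuroectoderm and 3.43, 2.89 and 3.68 in mesendoderm. Each neuroectoderm value exceeded all others, with a rise of 0.87 ± 0.16 over hESC (adjusted p = 0.00249) and 0.72 ± 0.16 over mesendoderm (adjusted p = 0.00624). ATG16L2, the less studied homolog of ATG16L1, read 4.28, 2.84 and 4.03 RPKM in hESC, 4.69, 8.54 and 8.15 in neuroectoderm and 3.49, 2.34 and 2.87 in mesendoderm. Its neuroectoderm values were higher than the rest, though neuroectoderm 1 exceeded the highest hESC library only slightly. The rise over hESC was 0.76 ± 0.22 (adjusted p = 0.0196), with the call gone without hESC 2 or neuroectoderm 2 or 3 (adjusted p = 0.0646 to 0.0707), and the excess over mesendoderm was 1.03 ± 0.22 (adjusted p = 0.00398). In mesendoderm ATG16L2 was past the threshold with the 3 GC-shifted libraries left out (adjusted p = 0.00562). FCHSD2 overlaps 20.6% of its exon bases on the opposite strand and rose from 2.78 ± 0.301 to 7.82 ± 0.819 RPKM in neuroectoderm (adjusted p = 1.92e-05). Again the overlapping reads cannot be told apart.

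ATG16L1 itself, the subunit that places the ligase on the membrane, ranged from 8.92 to 11.7 RPKM and passed no test. ATG12 ranged from 4.78 to 6.93 RPKM and its carrier enzyme ATG10 from 2.40 to 4.56, also without a call. ATG3, the carrier enzyme for ATG8 proteins, read 22.8, 24.1 and 27.97 RPKM in hESC, 21.6, 18.5 and 21.4 in neuroectoderm and 28.9, 27.9 and 26.5 in mesendoderm. Neuroectoderm lay below the other groups, with a difference of -0.42 ± 0.12 from mesendoderm (adjusted p = 0.0153), with the call gone without neuroectoderm 2 or mesendoderm 1 (adjusted p = 0.0513 to 0.0521), with small RNA left out (adjusted p = 0.443) and under quantile normalization (adjusted p = 0.162). Against hESC the ATG3 difference of -0.27 ± 0.12 did not pass (adjusted p = 0.0903). It was past the threshold with the 3 GC-shifted libraries left out (adjusted p = 0.0495).

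The ATG4 proteases trim ATG8 proteins before lipidation and release them afterwards. Against hESC limma called 0 of the 4 in either fate, with 1 at an unadjusted p under 0.05 in neuroectoderm and 2 in mesendoderm. Among all tested genes, limma called 44.2% in neuroectoderm and 35.1% in mesendoderm. ATG4D read 7.3, 4.23 and 5.82 RPKM in hESC, 2.52, 4.47 and 4.25 in neuroectoderm and 6, 7.23 and 7.77 in mesendoderm. Mesendoderm was above neuroectoderm in every library, a difference of -0.77 ± 0.21 (adjusted p = 0.01505), with the call gone without mesendoderm 3 (adjusted p = 0.0571). Against hESC the neuroectoderm difference of -0.52 ± 0.21 did not pass (adjusted p = 0.0787), and ATG4D was past the threshold without hESC 2 (adjusted p = 0.0315) and in 3 other settings (adjusted p = 0.00842 to 0.0399). KRI1 overlaps 17.5% of the ATG4D exon bases on the opposite strand and did not pass a test in any comparison (adjusted p = 0.131 to 0.714). ATG4B, the most active of the family on LC3, ranged from 10.3 RPKM in neuroectoderm 1 to 22.1 in neuroectoderm 2. ATG4B in neuroectoderm was past the threshold without neuroectoderm 1 (adjusted p = 0.0324) and with the 3 GC-shifted libraries left out (adjusted p = 0.0288). ATG4C ranged from 2.84 to 4.98 RPKM and ATG4A from 0.470 to 1.53. In mesendoderm ATG4C was past the threshold without neuroectoderm 1 or mesendoderm 1 (adjusted p = 0.0449 to 0.0455) and with the 3 GC-shifted libraries left out (adjusted p = 0.0257), and ATG4A was past the threshold under quantile normalization (adjusted p = 0.0452) and with a replicate block (adjusted p = 0.0447).

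The ATG8 family is the set of ubiquitin-like proteins that coat the membrane. GABARAP was the most abundant member per length in every library, at 41.6% to 61.1% of the summed RPKM of the 6 tested genes. The sum was 68.0 ± 14.1 RPKM (SD, n = 3) in hESC, 83.9 ± 27.1 in neuroectoderm and 108.5 ± 5.98 in mesendoderm. The LC3 subfamily supplied 13.8% ± 0.571 of it in hESC, 16.2% ± 3.27 in neuroectoderm and 13.2% ± 0.794 in mesendoderm (two-sided exact permutation p = 0.4, 0.4 and 0.3, with the fates compared last, where the smallest possible is 0.1, and 0.4 for each after Benjamini-Hochberg adjustment over the 6 tests of shares).

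GABARAPL1 read 13.7, 9.37 and 11.3 RPKM in hESC, 4.83, 7.49 and 8.02 in neuroectoderm and 21.2, 22.5 and 22.5 in mesendoderm. The groups were fully separate, lowest in neuroectoderm and highest in mesendoderm, where the spread was smallest. The difference from hESC was -0.69 ± 0.18 in neuroectoderm (adjusted p = 0.0142), with the call gone without hESC 1 (adjusted p = 0.0563), and 0.899 ± 0.18 in mesendoderm (adjusted p = 0.00517). The difference between the fates was -1.59 ± 0.18 (adjusted p = 1.13e-04). GABARAPL1 went from 17.0% of the ATG8 sum in hESC to 8.27% in neuroectoderm and 20.3% in mesendoderm, as group means.

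GABARAPL2 read 11.3, 13.3 and 11.8 RPKM in hESC, 16.8, 16.7 and 14.9 in neuroectoderm and 19.8, 17.4 and 15.9 in mesendoderm. Unlike GABARAPL1, it was above all hESC libraries in both fates. The rise was 0.39 ± 0.12 in neuroectoderm (adjusted p = 0.0247), with the call gone without hESC 1 or 3 or neuroectoderm 2 (adjusted p = 0.0691 to 0.0872), with small RNA left out (adjusted p = 0.0835) and under quantile normalization (adjusted p = 0.0613). In mesendoderm it was 0.51 ± 0.12 (adjusted p = 0.00905), with the call gone with small RNA left out (adjusted p = 0.186) and under quantile normalization (adjusted p = 0.063). GABARAP read 41.7, 21.5 and 41.9 RPKM in hESC, 25.2, 65.2 and 50.5 in neuroectoderm and 47.9, 57.4 and 57.97 in mesendoderm. Its hESC 2 and neuroectoderm 1 libraries were the lowest of all, and its differences of 0.37 ± 0.36 and 0.68 ± 0.36 from hESC did not pass (adjusted p = 0.439 and 0.18). In neuroectoderm GABARAP was past the threshold without neuroectoderm 1 (adjusted p = 0.0472) and with the 3 GC-shifted libraries left out (adjusted p = 0.0185), and in mesendoderm it was past the threshold with the 3 GC-shifted libraries left out (adjusted p = 0.0218). GABARAP shares 30.5% of its exon bases with a read-through gene on the same strand.

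Among the LC3 genes, MAP1LC3B read 6.51, 4.34 and 6.33 RPKM in hESC, 5.13, 12.7 and 12.3 in neuroectoderm and 9.51, 11.4 and 11.9 in mesendoderm. Mesendoderm lay above hESC in every library, and neuroectoderm 1 fell within hESC while neuroectoderm 2 and 3 were the highest of all. The differences from hESC were 0.64 ± 0.29 and 0.84 ± 0.29 (adjusted p = 0.109 and 0.0534). MAP1LC3B in neuroectoderm was past the threshold without neuroectoderm 1 (adjusted p = 9.47e-04), with small RNA left out (adjusted p = 0.00698) and with the 3 GC-shifted libraries left out (adjusted p = 1.15e-04), and in mesendoderm it was past the threshold without neuroectoderm 1 or 2 (adjusted p = 0.001703 to 0.0451) and in 3 other settings (adjusted p = 2.94e-04 to 0.0429). MAP1LC3A read 2.11, 1.19 and 1.72 RPKM in hESC, 1.53, 4.02 and 4.8 in neuroectoderm and 1.94, 2.1 and 2.58 in mesendoderm. It showed the same split within neuroectoderm, with a difference of 0.66 ± 0.28 (adjusted p = 0.0878). MAP1LC3A in neuroectoderm was past the threshold without neuroectoderm 1 (adjusted p = 8.70e-04), with small RNA left out (adjusted p = 0.0132) and with the 3 GC-shifted libraries left out (adjusted p = 9.91e-04), and against mesendoderm it was past the threshold without neuroectoderm 1 (adjusted p = 0.00425), with small RNA left out (adjusted p = 0.0467) and with the 3 GC-shifted libraries left out (adjusted p = 0.00291).

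MAP1LC3C, the LC3 form that CALCOCO2 prefers, was lower than hESC in both fates. It read 1.75, 1.95 and 2.1 RPKM in hESC, 0.28, 0.57 and 0.65 in neuroectoderm and 1.33, 0.98 and 1.32 in mesendoderm, with the 3 groups fully separate and neuroectoderm lowest. The mesendoderm difference was -0.41 ± 0.12 (adjusted p = 0.0279), with the call gone without hESC 2 or 3 or mesendoderm 2 or 3 (adjusted p = 0.0557 to 0.0955) and at a pseudocount of 0.1 (adjusted p = 0.0899). The difference of neuroectoderm from mesendoderm was -0.56 ± 0.12 (adjusted p = 0.00444). MAP1LC3C made up 2.94%, 0.589% and 1.12% of the ATG8 sum in hESC, neuroectoderm and mesendoderm. MAP1LC3B2, 43.4% of whose 50-base windows also occur in MAP1LC3B, read 0.26, 0.1 and 0 RPKM in hESC, 0.2, 0.75 and 0.17 in neuroectoderm and 0.36, 0.91 and 0.81 in mesendoderm and was treated as uncertain. GABARAPL3, which shares 11.1% of its windows with GABARAPL1, read 0.02, 0.01 and 0.1 RPKM in hESC, 0.05, 0.06 and 0 in neuroectoderm and 0.21, 0.11 and 0.06 in mesendoderm.

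**Figure D3:**
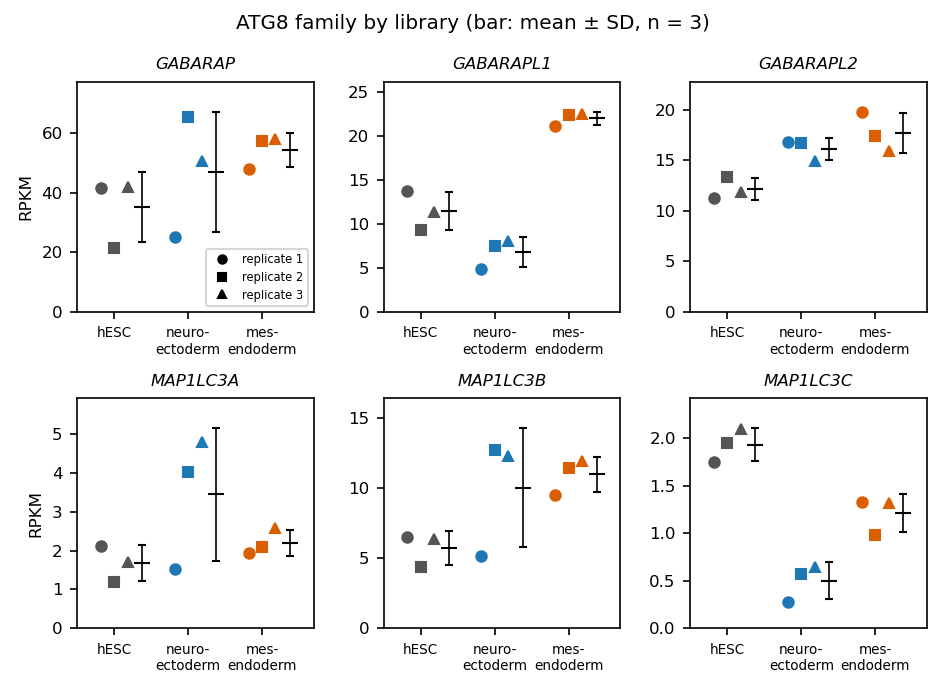
RPKM (vertical axis) of the 6 tested ATG8 family genes in each library, with the marker shape giving the replicate and the bar the mean ± SD of 3 libraries. GABARAPL1 is lowest in neuroectoderm and highest in mesendoderm, MAP1LC3C is highest in hESC, and neuroectoderm 1 lies far below neuroectoderm 2 and 3 for GABARAP, MAP1LC3A and MAP1LC3B.

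Deviations between libraries of a group moved with the GC content of the transcripts over the members. Across the 41 members with a known GC content, the rank correlation between GC content and deviation was -0.75 in neuroectoderm 1, -0.74 in hESC 2 and -0.42 in mesendoderm 1, and 0.20 to 0.78 in the others, given as a description. Neuroectoderm 1 minus the mean of neuroectoderm 2 and 3 was -1.15 for GABARAP, -1.13 for MAP1LC3B, -1.09 for MAP1LC3A and -0.94 for ATG4B on the log2(RPKM + 1) scale. RB1CC1, at 37.5% GC, was at 0.44. MAP1LC3A has a GC content of 60.9%, while GABARAP and MAP1LC3B, the lowest of all, have 49.8% and 48.7%, near the middle of the members. The part of GC content in the differences was not tested. In the fit without neuroectoderm 1, GABARAP, MAP1LC3A, MAP1LC3B, ATG4B, ATG9A, WIPI2 and ULK3 were called higher in neuroectoderm than in hESC and RB1CC1 lower. These genes deviated the other way in neuroectoderm 1, so leaving it out moves them in these directions. That fit called 51.3% of all tested genes, and these calls are no independent support.

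**Figure D4:**
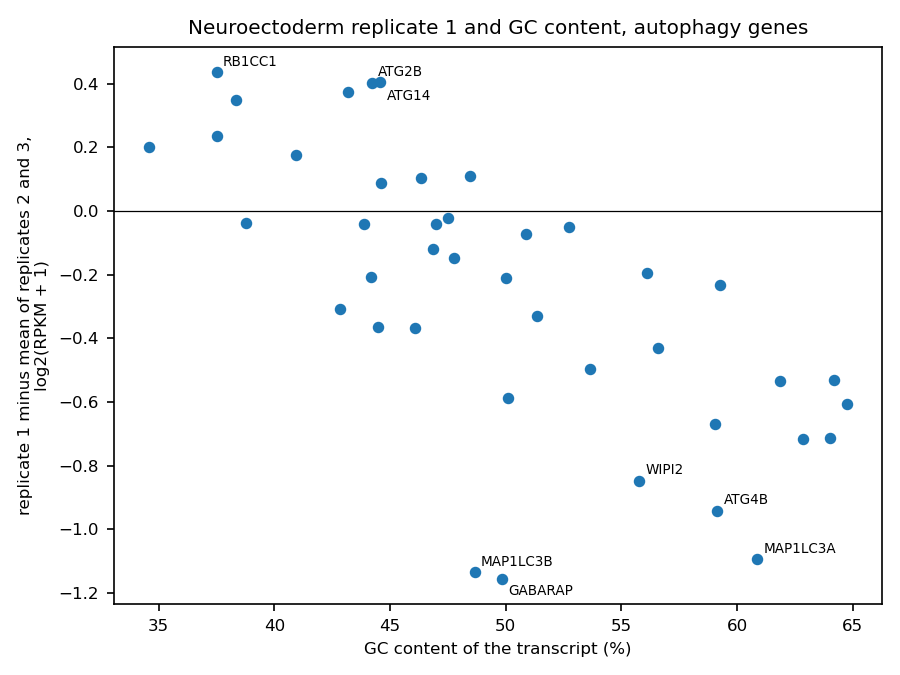
Deviation of neuroectoderm replicate 1 from the mean of replicates 2 and 3 (vertical axis, log2(RPKM + 1)) against the GC content of the transcript (horizontal axis, percent) for the 41 members with a known GC content, 1 point each. Points fall from left to right, with GABARAP at -1.15 and RB1CC1 at 0.44.

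Among the cargo receptors SQSTM1 fell and NBR1 and CALCOCO2 rose in neuroectoderm, while group means of their summed level lay within the SD of one another. The sum of the 5 was 71.1 ± 4.19 RPKM (SD, n = 3) in hESC, 69.2 ± 2.26 in neuroectoderm and 69.7 ± 5.99 in mesendoderm. SQSTM1, which carries ubiquitin-tagged protein and binds KEAP1, supplied 40.0% ± 1.92 of it in hESC, 21.3% ± 1.58 in neuroectoderm and 35.0% ± 0.461 in mesendoderm. Each pair of groups was separate (two-sided exact permutation p = 0.1 for each of the 3 pairs, the smallest that 3 against 3 can give, and 0.2 after adjustment over the 6 tests of shares).

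By library, SQSTM1 read 28.2, 25.9 and 31.4 RPKM in hESC, 13.4, 15.9 and 14.99 in neuroectoderm and 25.96, 22.1 and 24.9 in mesendoderm. Neuroectoderm stood below every other library, and mesendoderm overlapped hESC (-0.22 ± 0.12, adjusted p = 0.194). SQSTM1 in mesendoderm was past the threshold with the 3 GC-shifted libraries left out (adjusted p = 0.02805). Neuroectoderm differed from mesendoderm by -0.69 ± 0.12 (adjusted p = 0.00137), a call kept in every setting. MRNIP, listed as C5orf45, overlaps 39.8% of the SQSTM1 exon bases on the opposite strand. Its levels went from 6.61 ± 0.853 RPKM in hESC to 12.6 ± 1.46 in neuroectoderm and 4.99 ± 0.953 in mesendoderm (adjusted p = 0.00181 and 0.101 against hESC), a rise in neuroectoderm where SQSTM1 fell. Here too overlapping reads cannot be told apart.

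NBR1, a receptor for protein aggregates and peroxisomes that can pair with SQSTM1, read 11.5, 11.8 and 12.5 RPKM in hESC, 18, 17.5 and 19.2 in neuroectoderm and 15.03, 11.7 and 12.9 in mesendoderm. All neuroectoderm values were above the rest, by 0.57 ± 0.11 over hESC (adjusted p = 0.00289) and 0.44 ± 0.11 over mesendoderm (adjusted p = 0.00963). CALCOCO2, a receptor for bacteria and mitochondria, read 4.47, 4.42 and 4.97 RPKM in hESC, 7.99, 9.08 and 9.7 in neuroectoderm and 4.53, 3.66 and 4.44 in mesendoderm. Neuroectoderm exceeded all 6 other libraries, and hESC and mesendoderm overlapped (-0.11 ± 0.11, adjusted p = 0.463). Over mesendoderm the excess was 0.93 ± 0.11 (adjusted p = 1.13e-04). NBR1 went from 16.8% to 26.3% of the receptor sum and CALCOCO2 from 6.49% to 12.9% between hESC and neuroectoderm.

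OPTN, a receptor in mitophagy, read 6.9, 5.9 and 7.62 RPKM in hESC, 5.97, 8.38 and 7.59 in neuroectoderm and 4.78, 4.72 and 5.33 in mesendoderm. Mesendoderm was below all other libraries. Its fall from hESC, -0.39 ± 0.13, only just passed (adjusted p = 0.0498), with the call gone without hESC 1 or 3 or neuroectoderm 3 or mesendoderm 1, 2 or 3 (adjusted p = 0.0721 to 0.167) and in 3 other settings (adjusted p = 0.0513 to 0.0761). Neuroectoderm exceeded mesendoderm by 0.47 ± 0.13 (adjusted p = 0.0166), with the call gone without neuroectoderm 2 or 3 or mesendoderm 2 (adjusted p = 0.0543 to 0.0547). TAX1BP1, a relative of CALCOCO2, read 17.7, 20.6 and 19.5 RPKM in hESC, 21.8, 18.2 and 20.2 in neuroectoderm and 24.9, 21.2 and 22.8 in mesendoderm and passed no test, with differences of 0.053 ± 0.12 in neuroectoderm and 0.24 ± 0.12 in mesendoderm (adjusted p = 0.743 and 0.136). In neuroectoderm TAX1BP1 and NBR1 thus had the highest receptor levels per length, where SQSTM1 had it in hESC.

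**Figure D5:**
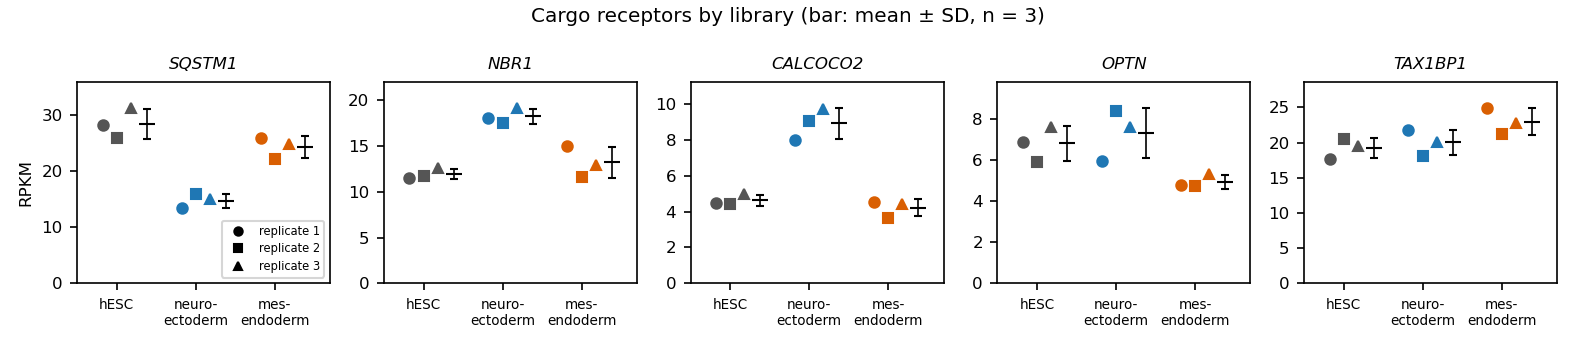
RPKM (vertical axis) of the 5 cargo receptors in each library, with the marker shape giving the replicate and the bar the mean ± SD of 3 libraries. In neuroectoderm SQSTM1 lies at 13.4 to 15.9, below every other library, while NBR1 and CALCOCO2 lie above every other library.

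EPG5, a tether that joins autophagosomes to late endosomes and lysosomes, ranged from 3.47 to 4.09 RPKM and had differences of 0.047 and 0.059 from hESC. It was among the steadiest members.

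Promoters are shown for 4 members: GABARAPL1 and WIPI1, which moved apart in the fates, and CALCOCO2 and TECPR1. The latter were the only members called higher in neuroectoderm than in hESC that had a match to a motif searched below. Each sequence holds the 250 bases before the start of the gene, from RefSeq on GRCh38.p14, 5′ to 3′ on the strand of the gene, with any match to the searched motifs in capitals. GABARAPL1 lies at chr12:10212627-10212876 on the plus strand, WIPI1 at chr17:68457497-68457746 on the minus strand, CALCOCO2 at chr17:48830785-48831034 on the plus strand and TECPR1 at chr7:98252233-98252482 on the minus strand.
GABARAPL1: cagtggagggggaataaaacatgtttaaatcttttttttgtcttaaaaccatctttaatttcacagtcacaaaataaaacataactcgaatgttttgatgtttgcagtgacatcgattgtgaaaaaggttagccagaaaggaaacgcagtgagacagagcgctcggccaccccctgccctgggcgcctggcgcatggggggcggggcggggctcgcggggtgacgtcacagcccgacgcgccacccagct
WIPI1: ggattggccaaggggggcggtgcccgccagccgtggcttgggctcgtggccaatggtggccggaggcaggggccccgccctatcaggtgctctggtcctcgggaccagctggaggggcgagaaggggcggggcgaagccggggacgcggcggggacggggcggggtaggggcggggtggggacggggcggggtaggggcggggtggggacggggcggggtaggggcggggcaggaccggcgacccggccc
CALCOCO2: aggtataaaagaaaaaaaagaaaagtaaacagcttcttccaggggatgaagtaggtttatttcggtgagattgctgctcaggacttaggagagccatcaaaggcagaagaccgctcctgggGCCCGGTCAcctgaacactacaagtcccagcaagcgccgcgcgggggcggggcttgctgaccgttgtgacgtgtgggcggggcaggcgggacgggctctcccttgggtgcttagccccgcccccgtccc
TECPR1: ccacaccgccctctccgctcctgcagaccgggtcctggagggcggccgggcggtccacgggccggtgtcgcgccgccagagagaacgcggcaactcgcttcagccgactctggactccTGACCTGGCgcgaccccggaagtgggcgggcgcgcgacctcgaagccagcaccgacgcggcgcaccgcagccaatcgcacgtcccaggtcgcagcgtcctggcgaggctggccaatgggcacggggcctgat

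The 2 motifs searched, on both strands, were TCACGTG, the core of the element that TFEB binds, and TGACNNNGC, the core of the antioxidant response element that NRF2 binds. Neither motif contains the other. Windows from 250 bases before to 50 after the start were available for 36 of the 42 tested members and 27305 promoters in all. TGACNNNGC occurred in the windows of CALCOCO2, MAP1LC3B, TECPR1 and ULK3, 11.1% of the members beside 13.6% of all promoters. In CALCOCO2 the match begins 129 bases before the start and in TECPR1 132 bases before it. ULK2, ATG13, ATG7, ATG16L2, NBR1 and GABARAPL2, which also rose in neuroectoderm, had no match to either motif. TCACGTG occurred in those of ATG14 and ATG3, 5.56% beside 3.82%. A match is a description of the letters, not a site of binding.

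The genes around the machinery were taken from 7 lists and fitted in the same model. Their counts stand beside 21.9% of all tested genes higher and 22.3% lower in neuroectoderm, 17.0% and 18.1% in mesendoderm, and 24.0% and 24.1% between the fates. Of 8 tested transcription factors known to act on autophagy genes, in neuroectoderm 0 rose and 4 fell, and in mesendoderm 2 rose and 3 fell. The list's median difference was -0.46 in neuroectoderm, -0.16 in mesendoderm and -0.44 between the fates, beside -0.024, -0.017 and -0.006 over all tested genes. FOXO1 had 1.14 ± 0.101 against 13.5 ± 0.285 RPKM in neuroectoderm against hESC (-2.76 ± 0.12, adjusted p = 4.49e-07), and FOXO4 had 2.12 ± 0.185 against 7.99 ± 0.431 RPKM (-1.53 ± 0.092, adjusted p = 2.56e-06). TFE3, a close relative of TFEB, was lower in mesendoderm (-1.01 ± 0.11, adjusted p = 1.45e-04), while TFEB was higher there (0.95 ± 0.17, adjusted p = 0.00248). Between the fates 1 rose and 5 fell in neuroectoderm relative to mesendoderm, led by FOXO1 (-1.86 ± 0.12, adjusted p = 2.97e-06) and FOXO4 (-1.61 ± 0.092, adjusted p = 1.27e-06).

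Of 15 tested genes of mTORC1 and its inputs, in neuroectoderm 6 rose and 2 fell, and in mesendoderm 5 rose and 1 fell. Its medians in the same order were 0.26, 0.087 and 0.035. SESN3, a sestrin that restrains mTORC1, had 77 ± 16.7 against 11.3 ± 2.34 RPKM (2.66 ± 0.26, adjusted p = 4.79e-05) in neuroectoderm against hESC. DDIT4, another inhibitor of mTORC1 signalling, had 59.8 ± 26.8 against 15.5 ± 2.22 RPKM (1.76 ± 0.33, adjusted p = 0.00228). In mesendoderm the largest differences were those of RRAGD, a Rag GTPase (-1.21 ± 0.098, adjusted p = 2.23e-05), and SESN3 (0.98 ± 0.26, adjusted p = 0.0175). Between the fates 4 rose and 3 fell, with DDIT4 (1.79 ± 0.33, adjusted p = 0.00184) and SESN3 (1.69 ± 0.26, adjusted p = 6.52e-04) higher in neuroectoderm. Of the 7 AMPK genes, 2 rose and 0 fell in neuroectoderm, namely the catalytic subunit PRKAA2 (0.58 ± 0.15, adjusted p = 0.0115) and PRKAB1 (0.53 ± 0.16, adjusted p = 0.0221). The AMPK medians were 0.22, -0.029 and 0.19. In mesendoderm limma called 0 AMPK genes, with 1 at an unadjusted p under 0.05. Between the fates only PRKAA2 of this list passed (0.61 ± 0.15, adjusted p = 0.0082). With the replicate block for the 6 libraries of the fates, which rests on an assumed pairing, PRKAA1, PRKAB2 and PRKAG1 passed too. PRKAA1 (0.38, adjusted p = 0.0316) and PRKAB2 (0.44, adjusted p = 0.0421) were higher in neuroectoderm, and PRKAG1 was lower (-0.35, adjusted p = 0.0379).

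Of 13 tested fusion genes, 4 rose and 2 fell in neuroectoderm and 8 rose and 0 fell in mesendoderm. The fusion list had medians of 0.073, 0.41 and -0.34. VAMP8, the lysosomal SNARE that pairs with STX17, had 1.44 ± 0.592 against 8.05 ± 3.28 RPKM in neuroectoderm against hESC (-1.85 ± 0.29, adjusted p = 9.35e-04) and 53.9 ± 9.02 against 8.05 ± 3.28 RPKM in mesendoderm against hESC (2.66 ± 0.29, adjusted p = 1.45e-04). STX17, its partner on the autophagosome, rose in neuroectoderm (0.904 ± 0.11, adjusted p = 2.01e-04). LAMP2, a lysosomal membrane protein, rose in mesendoderm (0.92 ± 0.15, adjusted p = 0.00173). Between the fates 2 rose and 6 fell in neuroectoderm relative to mesendoderm, with VAMP8 (-4.51 ± 0.29, adjusted p = 2.85e-06) and LAMP2 (-1.002 ± 0.15, adjusted p = 6.79e-04) lower.

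Of 10 tested receptors outside the 5 described, 3 rose and 0 fell in neuroectoderm and 4 rose and 0 fell in mesendoderm. For these receptors the medians were -0.103, 0.31 and -0.18. CCDC50 was higher in neuroectoderm (1.44 ± 0.089, adjusted p = 2.92e-06) and mesendoderm (1.27 ± 0.089, adjusted p = 9.35e-06). The mitophagy receptor BNIP3L rose in neuroectoderm (0.87 ± 0.11, adjusted p = 2.09e-04), and its paralog BNIP3 rose in mesendoderm (1.31 ± 0.39, adjusted p = 0.02804). Between the fates 1 rose and 4 fell, with BNIP3 (-2.09 ± 0.39, adjusted p = 0.00201) and the ferritin receptor NCOA4 (-1.06 ± 0.12, adjusted p = 1.28e-04) lower in neuroectoderm. Of the 8 tested other core genes, ZFYVE1, a marker of the omegasome, was the 1 that rose in neuroectoderm (0.59 ± 0.13, adjusted p = 0.00649). It also rose in mesendoderm (0.51 ± 0.13, adjusted p = 0.0173), together with the scramblase TMEM41B (0.61 ± 0.11, adjusted p = 0.00245), which was lower in neuroectoderm than in mesendoderm (-0.74 ± 0.11, adjusted p = 5.24e-04). NRBF2 passed between the fates only with the replicate block, which rests on an assumed pairing, and was lower in neuroectoderm (-0.58, adjusted p = 0.0288). The medians of the other core genes were -0.022, 0.19 and -0.084. Around SQSTM1, the list of KEAP1, its ligase partners, NFE2L2 and TBK1 gave 1 call in each fate. Its medians were -0.17, -0.017 and -0.32. CUL3, the ligase scaffold, rose in neuroectoderm (0.34 ± 0.097, adjusted p = 0.0206), and NFE2L2, which encodes NRF2, rose in mesendoderm (0.697 ± 0.13, adjusted p = 0.00261). Between the fates NFE2L2 was lower in neuroectoderm (-0.44 ± 0.13, adjusted p = 0.0187) and CUL3 higher (0.36 ± 0.097, adjusted p = 0.0147).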

How the data were processed

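The values are RPKM, computed and deposited by the authors in 1 table of 38759 RefSeq transcripts. Per the submitters' processing notes, TopHat, TopHat2 2.0.13 and Bowtie2 were used with build hg19. How reads were counted, and whether by strand, is not given in the sources used here. Per the labels' protocols, RNA was depleted of ribosomal RNA and made into Ion Torrent total RNA libraries. The transcript with the highest mean stood for each symbol. The 14473 genes averaging 0.5 RPKM or more were analysed as log2(RPKM + 1) in 1 linear model of all 9 libraries with limma 3.58.1 (R 4.3.3, mean-variance trend), and p-values were Benjamini-Hochberg adjusted over all of them, with calls under 0.05. Differences are ± SE. The fit was tested on simulated data with independent noise for each gene and library. That test does not cover GC-linked shifts shared by the genes of a library. No label says that libraries of a group come from separate cultures, and p-values measure only the spread between these libraries, which may be technical. Library depth came from the steps of microRNA values, of which 96.9% to 99.2% lay within 0.1 of a whole read. Exon overlaps came from GENCODE v29, and GC content had a value for 41 of 42 members. Members, lists and tests were chosen with earlier results of these data known. All members are named. Values by library are given for members past the threshold in at least 1 comparison, for the ATG8 family and cargo receptors, and for ULK1, BECN1, ATG5 and ATG7. From each pathway list, up to 2 genes with the largest change past the threshold are named per comparison. The 17 alternatives were another pseudocount (0.1), no filter, a minimum of 2 RPKM, small RNA left out with rescaling, quantile normalization, transcripts summed, a replicate block, the 3 libraries with opposite GC trends left out, and each library left out in turn. The labels number the libraries 1 to 3 in each group and do not say what a number marks. Deviations from the group means of same-numbered libraries correlated at 0.39, 0.25 and 0.23 between neuroectoderm and mesendoderm. The numbers were taken to pair these 6 libraries from that correlation alone. Same-numbered libraries of hESC correlated at -0.74 to 0.40 with neuroectoderm and -0.49 to 0.058 with mesendoderm, and no pairing was taken. Unlike-numbered pairs of the fates ran from -0.37 to 0.24. Neuroectoderm 3 correlated more with mesendoderm 2 (0.241) than with mesendoderm 3 (0.229). The GC-shifted hESC 2 and neuroectoderm 1, with different numbers, correlated at 0.79. These values do not show that the numbers mark pairs, and calls made only with a replicate block rest on an assumed pairing. A replicate block for the 6 libraries of the fates, with no block term for hESC, was added as a further alternative after seeing the data.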

Additional observations from a re-analysis of the deposited data

Results flagged for a closer look

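GABARAPL1 and WIPI1 moved in opposite directions from hESC in the 2 fates, and the difference between the fates was itself past the threshold. It was -1.59 (neuroectoderm minus mesendoderm, log2(RPKM + 1)) for GABARAPL1, where limma's adjusted p was 1.13e-04, and all 3 libraries of each group lay on their own side of hESC. For WIPI1 it was -1.57 with an adjusted p of 7.23e-05, again without overlap. Both differences were kept in all 18 other settings.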

How the results depend on the processing

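Over the 17 alternatives and the replicate block between the fates, which was chosen after seeing the data, 2178 member differences were recomputed. Of these, 2011 kept their side of the threshold, 105 lost a call, 62 gained one and 0 reversed, while 76 that were not called changed sign. Of the 41 calls, 23 were kept in every setting. A minimum of 2 RPKM left 1 member lower in mesendoderm, beside 15.9% of all tested genes lower. There MAP1LC3C was no longer tested and OPTN was not called. With small RNA left out, the member medians became 0.23 in neuroectoderm, -0.0033 in mesendoderm and 0.21 between the fates. Quantile normalization gave a mesendoderm median of 0.029, and leaving out the 3 libraries with opposite GC trends gave 0.046, with 16 members higher in neuroectoderm and 9 higher and 6 lower in mesendoderm, where 58.6% and 47.1% of all tested genes were called against 44.2% and 35.1% with all 9 libraries. With transcripts summed, the SQSTM1 share differed by -12.4 percentage points between the fates, against -13.6. Leaving out 1 library at a time gave 6 to 15 members higher and 3 to 6 lower in neuroectoderm. In mesendoderm it gave 4 to 7 and 1 to 4, and between the fates 7 to 10 and 7 to 9, with a median from -0.054 to 0.11 there. Members called ran from 23.8% to 50% in neuroectoderm, 11.9% to 26.2% in mesendoderm and 35.7% to 45.2% between the fates. Beside them 34.7% to 51.3%, 24.9% to 46.4% and 38.2% to 51.9% of all tested genes were called. The cause of these shifts was not tested. A replicate block over all 9 libraries was also fitted, though the numbers did not pair hESC with either fate. It gave 8 higher and 5 lower in neuroectoderm, 5 and 2 in mesendoderm, and 7 and 8 between the fates. These were 30.95%, 16.67% and 35.71% of the members, beside 38.99%, 29.19% and 43.18% of all tested genes. Without the block, 44.2%, 35.1% and 48.1% of all tested genes were called. The replicate block between the fates, which rests on an assumed pairing, gave 10 higher and 9 lower there, 45.2% of the members beside 51.6% of all tested genes. It ended the call of ULK4, added that of ULK3 and changed no other call of a member. Of the pathway genes, TSC1 lost its call (adjusted p = 0.0507). VPS41, PRKAA1 and PRKAB2 gained a call as higher in neuroectoderm, and NRBF2 and PRKAG1 as lower. Depth limits the low members: 3 reads at 1 kb are worth up to 0.0829 RPKM, close to the values of GABARAPL3 and not far below MAP1LC3B2.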
